A study of Mus musculus with 3 samples.

Results

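The genes described here are Srsf1, Srsf2, Srsf3, Srsf4, Srsf5, Srsf6 and Srsf7, which encode 7 SR proteins, Tra2a, which encodes an SR-like protein, and Clk1 and Clk4, which encode 2 kinases that phosphorylate SR proteins. They were chosen by name as a functional family and by no rule on measured values, though with earlier results of these data known. All 10 symbols were found among the 55536 genes listed for each library. Each was followed through its gene level and through the share of its RNA in coding, retained intron and nonsense-mediated decay transcripts, classes that the GENCODE M21 annotation assigns.

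The RNA came from the cytosolic fraction of macrophages grown in culture from the bone marrow of C57BL/6J mice, treated for 50 min with lipid A at 100 ng/ml. Lipid A is the part of bacterial lipopolysaccharide that Toll-like receptor 4 recognises. Ribosomal RNA was depleted and the total RNA that remained was sequenced in 3 libraries, replicates 1, 2 and 3 of 1 group, whose labels name the strain and no engineered allele and leave age and sex as not collected. The 3 carry the same donor label but separate biosample records, and nothing in the labels tells whether they were different animals or cultures, so the p-values below cover no more than the spread of these samples, and that may be technical. No unstimulated macrophages and no nuclear fraction were analysed here, and therefore no value is a response to lipid A or a ratio between compartments.

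Gene expected counts, which are estimated numbers of reads, came to 33044910, 36769402 and 36522216 in libraries 1, 2 and 3. A count of 0 allows up to 3 counts, or between 0.0816 and 0.0908 CPM (counts relative to library size), which covers counting error only. All 9 macrophage markers examined were detected, meaning at 1 TPM or more in each library, where TPM expresses abundance, corrected for length, as a part of all RNA listed. They summed to 9967, 6640.4 and 9432 TPM in libraries 1, 2 and 3, with Lyz2 (6416 ± 1364 TPM) and Cd68 (929 ± 253 TPM) highest and Itgam (30.9 ± 7.92 TPM) lowest. Of 18 markers of other blood, stromal and endothelial cells, 17 averaged under 1 TPM, Cd3e, Ly6g and Hbb-bs were among those at 0 in every library, and Pf4, a platelet chemokine, was the exception at 223 TPM, followed by Siglech at 0.310 TPM. Malat1 and Neat1, long RNAs that stay in the nucleus, were present in the cytosolic libraries and differed between them, as given beside the intron results.

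SR proteins bind short motifs in exons through their RNA recognition motifs and, through tails rich in arginine and serine, help the spliceosome to define the exon. Clk kinases in the nucleus, and SRPK kinases mostly in the cytoplasm, phosphorylate these tails, which sets where SR proteins reside and how active they are. Many SR protein genes limit their own output: an abundant SR protein promotes inclusion of a highly conserved exon with an early stop codon, often called a poison exon, or splicing events after the normal stop, and the resulting mRNA is degraded in the cytoplasm by nonsense-mediated decay. Clk1 and Clk4 pre-mRNAs skip an exon or retain the introns around it, and in mouse and human cells the intron-retaining Clk1 RNA is kept in the nucleus and can be spliced to completion later.

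Sequences in which these alternatives differ are shown first, because the transcript shares below refer to them. The first 4 are exons found in the decay transcript and not in the coding transcript with the highest level, printed from the start of the exon to the early stop codon, which is in capitals. They were read from the GENCODE M21 transcripts, with mm10 coordinates of the printed bases. The Srsf3-201 exon has 456 bases, of which 34 are printed (chr17:29039454-29039487, plus strand). The Srsf6-201 exon has 268 bases, of which 152 are printed (chr2:162932815-162932966, plus strand). The Srsf7-203 exon has 460 bases, of which 28 are printed (chr17:80205054-80205081, minus strand), and the Tra2a-202 exon has 306 bases, of which 144 are printed (chr6:49252965-49253108, minus strand).
Srsf3-201: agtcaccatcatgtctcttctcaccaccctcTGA
Srsf6-201: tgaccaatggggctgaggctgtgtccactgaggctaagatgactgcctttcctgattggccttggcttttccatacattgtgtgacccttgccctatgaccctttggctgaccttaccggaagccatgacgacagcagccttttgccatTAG
Srsf7-203: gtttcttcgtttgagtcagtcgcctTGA
Tra2a-202: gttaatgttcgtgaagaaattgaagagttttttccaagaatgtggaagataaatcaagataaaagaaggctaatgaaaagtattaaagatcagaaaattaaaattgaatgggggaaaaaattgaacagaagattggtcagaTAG
In all 4 the stop lies in the exon itself, so its inclusion ends the reading frame there.

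In the kinases the decay transcript lacks an exon that the coding transcript has. The exon of Clk1-201 skipped in Clk1-210 (chr1:58420121-58420211, minus strand) and that of Clk4-201 skipped in Clk4-204 (chr11:51273078-51273168, plus strand) are printed whole, with no letter in capitals.
Clk1-201: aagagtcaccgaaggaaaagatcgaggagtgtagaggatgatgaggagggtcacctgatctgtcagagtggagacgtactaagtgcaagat
Clk4-201: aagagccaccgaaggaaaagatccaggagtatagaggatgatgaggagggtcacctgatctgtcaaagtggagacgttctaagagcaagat
Each has 91 bases, 1 base past whole codons. The pair share 85 of 91 bases, an identity of 93.4%. In Clk1-210 the annotated stop (chr1:58419713-58419715) comes after the skipped exon, so skipping that exon shifts the reading frame before the stop. In Clk4-204 the annotated stop (chr11:51271808-51271810) comes before the skipped exon, so the skip does not produce it. Clk4-204 also includes exons of 67 and 59 bases that Clk4-201 lacks, and these lie before that stop.

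All 10 genes were detected, and 8 of 10 averaged 10 TPM or more. Their mean levels spanned a 16.8-fold range, and the median of the 10 was 19.7 TPM, beside a median of 9.39 TPM over the 9128 detected protein-coding genes. Bulk RNA cannot tell fewer cells of a type apart from less RNA per cell.

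Among the SR proteins, Srsf5 was the highest. Its RNA stood at 84.3, 85.9 and 82.3 TPM in libraries 1, 2 and 3, a mean of 84.2 ± 1.82 TPM (SD, n = 3), above 93.3% of detected protein-coding genes (ENSMUSG00000021134.17, mm10 chromosome 12, 80945504 to 80950507). On this scale the 3 libraries were within a few percent of each other. With TPM rescaled to protein-coding genes only, Srsf5 stood at 220, 323 and 237, highest in library 2. Srsf2, also called SC35 and a classical marker of nuclear speckles, stood at 62.4, 35.8 and 41.8 TPM, a mean of 46.7 ± 14.0 TPM (ENSMUSG00000034120.18, chromosome 11, 116849901 to 116853094). Library 1 was the high value here. Srsf1, a shuttling SR protein with roles in splicing, export and translation, stood at 32.9, 25.5 and 27.1 TPM, a mean of 28.5 ± 3.88 TPM (ENSMUSG00000018379.17, chromosome 11, 88047373 to 88053755).

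Srsf3 and Srsf7 also act as adaptors for the mRNA export receptor Nxf1, and Srsf3 exceeded Srsf7 in 3 of 3 libraries (mean log2 ratio 0.31 ± 0.23). Srsf3 stood at 20.0, 20.8 and 24.5 TPM, a mean of 21.7 ± 2.40 TPM (ENSMUSG00000071172.13, chromosome 17, 29032628 to 29043373). Srsf7 stood at 19.1, 14.6 and 19.2 TPM, a mean of 17.6 ± 2.65 TPM (ENSMUSG00000024097.11, chromosome 17, 80200080 to 80207307). Srsf4 and Srsf6, which like Srsf5 carry a pair of RNA recognition motifs, were lower than Srsf5. Srsf6 stood at 17.9, 13.7 and 16.9 TPM, a mean of 16.2 ± 2.18 TPM (ENSMUSG00000016921.14, chromosome 2, 162931528 to 162937121). Srsf4 stood at 10.6, 7.80 and 10.6 TPM, a mean of 9.67 ± 1.62 TPM (ENSMUSG00000028911.16, chromosome 4, 131873617 to 131901706). Tra2a, which binds purine-rich exon enhancers, stood at 13.5, 13.2 and 16.4 TPM, a mean of 14.4 ± 1.75 TPM (ENSMUSG00000029817.11, chromosome 6, 49243924 to 49264033).

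The kinases differed from each other by more than the libraries did. Clk1 stood at 31.2, 18.6 and 30.2 TPM, a mean of 26.7 ± 6.99 TPM (ENSMUSG00000026034.17, chromosome 1, 58410189 to 58424066), with library 2 the low value. Clk4 stood at 5.46, 4.45 and 5.13 TPM, a mean of 5.01 ± 0.515 TPM, and was the lowest of the 10 (ENSMUSG00000020385.16, chromosome 11, 51261730 to 51281766). The groups of 3 values did not overlap between the kinases.

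**Figure D1:**
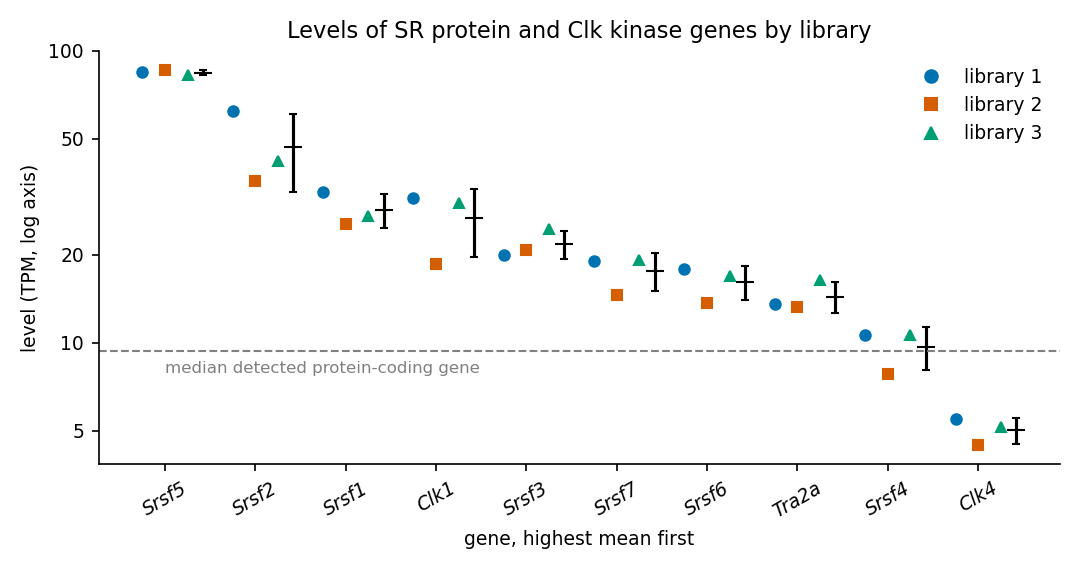
Level of each gene in TPM on a log axis. Points are the 3 libraries, and the black mark with bars is their mean ± SD. The dashed line is the median of detected protein-coding genes (9.39 TPM). Srsf5 lies highest at 84.2 TPM and Clk4 lowest at 5.01 TPM.

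From highest to lowest mean the order was Srsf5, Srsf2, Srsf1, Clk1, Srsf3, Srsf7, Srsf6, Tra2a, Srsf4 and Clk4, as the plot of levels by library shows. Neighbours in this order were taken as apart when the log2 ratio of their TPM had the same sign in 3 of 3 libraries and a mean above its SD. Srsf1 and Clk1 (mean log2 ratio 0.13 ± 0.31), Clk1 and Srsf3 (0.26 ± 0.40) and Srsf6 and Tra2a (0.17 ± 0.20) were not apart. Srsf5 exceeded Srsf2 by 0.89 ± 0.42 and Srsf4 exceeded Clk4 by 0.94 ± 0.12 on the log2 scale, in 3 of 3 libraries each. With 3 libraries a two-sided exact sign-flip test of such a ratio cannot go below p = 0.25, so no p is given for the order.

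TPM and counts ranked the libraries differently. In TPM, 8 of the 10 genes were lowest in library 2. On the log2 CPM scale, with TMM scaling to make libraries comparable, 8 of the 10 were highest in library 2 and the other 2, Srsf4 and Clk1, in library 3. With TPM rescaled to protein-coding genes only, library 2 was lowest for 1 of the 10, Clk1. TPM is a share of all RNA listed, and differences between libraries were tested on counts. These counts of genes have no share over all genes beside them, so the order is not shown to be particular to the 10. The median deviation of log2 CPM from the gene mean in library 2 was 0.091 over the 10 genes. It lay between 0.048 and 0.158 in the other splicing and decay lists described below, and was -0.0041 in the macrophage markers.

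None of the 10 genes was called as varying between libraries, which does not show that their levels were equal (edgeR goodness-of-fit test, 0 of 10 at adjusted p under 0.05, 0 of 10 at unadjusted p under 0.05, and 0 of 10 with DESeq2 size factors and dispersion). Over all genes, 203 of 12231 tested were called, or 1.66%, and 6.42% had an unadjusted p under 0.05, so a set of this size would hold few calls or none at the background rate. That count was 132, 91 and 89 without libraries 1, 2 and 3. Srsf5 came nearest, with log2 CPM of 7.07, 7.58 and 7.08 and a range of 0.51 (edgeR unadjusted p = 0.0502, adjusted p = 0.779). Srsf3 followed, with log2 CPM of 5.96, 6.48 and 6.30 (unadjusted p = 0.0722, adjusted p = 0.919), and library 2 was again the highest. Clk1 ran the other way, with log2 CPM of 5.98, 5.61 and 6.00 (unadjusted p = 0.174). The ranges of Srsf1, Srsf2, Srsf4, Srsf6 and Srsf7 all lay between 0.14 and 0.19 on the log2 scale.

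The transcripts of the 10 genes number 83 in the annotation, of which 25 are coding, 31 retain an intron, 17 are marked for nonsense-mediated decay and 10 fall in other classes. Decay transcripts made up 10% or more of the gene's TPM in each library for Srsf2, Clk4, Srsf3 and Srsf4, that is 4 of the 10 genes, and the same held for 16.7% of the 2843 detected genes with such a transcript. In expected counts, which are not corrected for transcript length, Srsf3 alone kept 10% or more in each library. The share over all genes was not computed in expected counts, so the 16.7% is no scale for that result. The median of the mean decay share in TPM was 9.49% over the 10 genes and 1.86% over all such genes. The shares are relative amounts left in the cytosol and do not measure how fast any transcript was degraded.

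Srsf2 had the highest decay share, 35.0%, 31.3% and 33.8% in libraries 1, 2 and 3 (33.4% ± 1.87). It lay in Srsf2-204, a transcript of 620 bases at 21.9, 11.2 and 14.1 TPM, beside 25.2, 22.6 and 26.0 TPM for the coding transcript Srsf2-201. Srsf2-204 is annotated without the 5′ part of Srsf2-201, keeps its stop codon and is spliced differently after it, so there is no early stop to print. Its bases overlap the opposite-strand gene Mettl23 over 72.3% of its length, while Mettl23 itself stood at 4.31 ± 0.330 TPM. Srsf2-201 overlaps Mettl23 over 24.2% of its length and Mfsd11, also on the opposite strand, over 15.2%. Mfsd11 stood at 43.7 ± 7.75 TPM. The strand setting of the counting is not given in the sources used here, so reads from the 2 strands cannot be told apart. The share of Srsf2-204 and the level of Srsf2 are uncertain for that reason. In expected counts the share was 14.9%, 9.92% and 11.4%.

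The poison exon transcript of Srsf3 was the clearest of the exon-inclusion type. Srsf3-201, whose exon is printed above, stood at 4.57, 2.75 and 4.24 TPM, and the coding transcript Srsf3-202 at 13.9, 16.3 and 19.3 TPM. The decay share of Srsf3 was therefore 22.9%, 13.2% and 17.3% (17.8% ± 4.86), lowest in library 2. Srsf4, whose decay transcript Srsf4-204 includes 3 exons that the coding transcript lacks, had shares of 17.3%, 10.1% and 10.9% of TPM (12.8% ± 3.95), and 7.03%, 3.92% and 4.25% of expected counts. Srsf4-204 stood at 1.60, 0.650 and 0.890 TPM, so library 1 held the high value.

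For Srsf6 the poison exon transcript varied most among libraries. Srsf6-201 stood at 2.08, 0.520 and 2.27 TPM, and the deposited interval bounds for its TPM ran from 0.665 to 3.46 in library 1, 0.206 to 0.943 in library 2 and 1.24 to 3.32 in library 3. The intervals of libraries 2 and 3 did not overlap, while that of library 1 overlapped both. The share was 11.6%, 3.79% and 13.4% (9.62% ± 5.12), and the transcript did not pass the test of variation between libraries (edgeR unadjusted p = 0.113). Tra2a-202 stood at 0.720, 0.80 and 0.560 TPM, a share of 4.93% ± 1.36, and Srsf7-203 at 0.180, 0.270 and 0.530 TPM, a share of 1.85% ± 0.908. Srsf1 had a decay transcript above 0 in library 2 only, at 1.25 TPM for Srsf1-204, which gave shares of 0%, 4.89% and 0%, so its mean of 1.63% rests on that library and is 0% without it. Srsf5 had almost none, with a share of 0.144% ± 0.166.

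Both kinases had transcripts that skip the exon of 91 bases printed above. Clk1-210 stood at 4.59, 1.54 and 1.20 TPM, highest in library 1, beside 24.9, 12.3 and 27.5 TPM for the coding transcript Clk1-201. The interval bounds of Clk1-210 were 3.13 to 5.93 in library 1, 0.783 to 2.18 in library 2 and 0.533 to 1.86 in library 3, so that library 1 lay apart from the others, although the test gave an unadjusted p of 0.0518 (edgeR, adjusted p = 0.772). The decay share of Clk1 was 14.7%, 8.92% and 4.44% (9.36% ± 5.14). In Clk4 the share was 16.7%, 27.2% and 21.5% of TPM (21.8% ± 5.27), and 7.31%, 11.7% and 8.59% of expected counts. Clk4-204 carried it in part, at 0.910, 0.50 and 0.640 TPM, on only 20.0, 16.5 and 17.2 expected counts, and Clk4-212, which skips the same exon, at 0, 0.710 and 0.460 TPM. The remaining one, Clk4-214, was listed at 0.

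**Figure D2:**
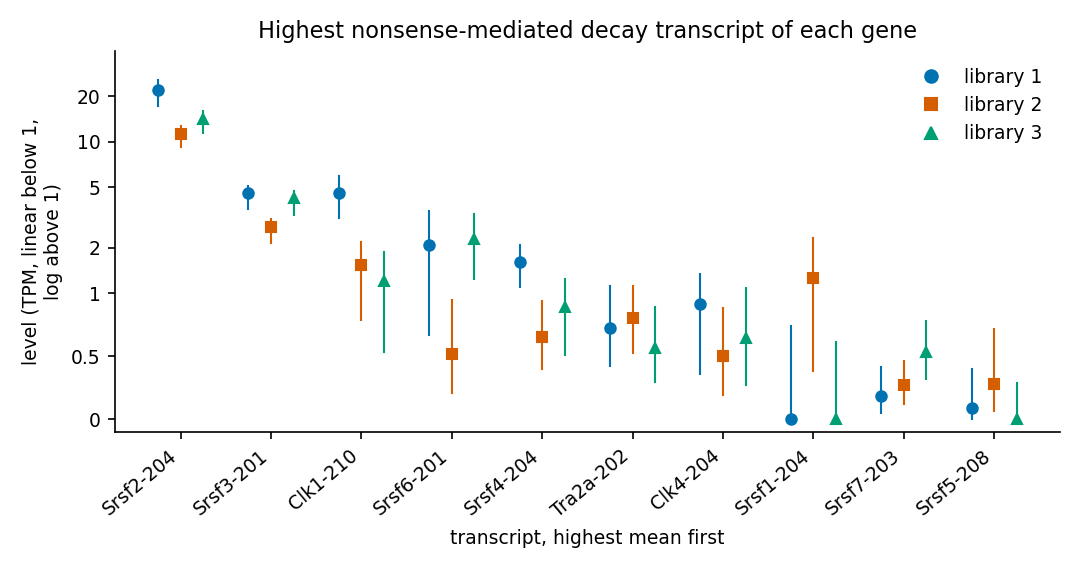
Level in TPM of the nonsense-mediated decay transcript of each gene that was highest in the first quantification, on an axis that is linear below 1 and logarithmic above. Points are the 3 libraries and lines the deposited interval bounds within a library. Srsf2-204 stands highest at 11.2 to 21.9 TPM, and library 2 is the low point for Srsf6-201 at 0.520 TPM.

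The plot of decay transcripts shows that the intervals within a library were narrowest, relative to the level, for Srsf2-204 and Srsf3-201, and that the order of the libraries was not shared between genes. The decay share was lowest in library 1 for Srsf7 and Clk4, in library 2 for 4 genes and in library 3 for 3, while Srsf1 was at 0% in libraries 1 and 3 alike.

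Retained intron transcripts reached 10% of TPM in each library in fewer of these genes than decay transcripts did. In mean TPM their share nevertheless exceeded the decay share in Srsf1, Srsf5 and Srsf7. The difference was small in Clk4, Tra2a and Clk1. Only Clk4 held 10% or more in each library, 1 of the 10 genes, and the same held for 10.6% of the 5811 detected genes that have such a transcript. The median of the mean share was 4.38% over the 10 genes and 1.48% over all such genes. Clk4 had shares of 30.4%, 20.9% and 15.8% (22.4% ± 7.40), spread over several transcripts of which the highest, Clk4-207, stood at 0.620, 0.20 and 0.340 TPM. The one that spans the skipped exon, Clk4-213, keeps the introns of 1055 and 391 bases on its sides and stood at 0.300, 0.330 and 0.230 TPM.

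Srsf1 came next, with shares of 23.9%, 17.5% and 9.37% (16.9% ± 7.28). These came from Srsf1-203, which keeps an intron of 378 bases (chromosome 11, 88049599 to 88049976) and stood at 7.86, 4.35 and 2.54 TPM. Library 1 was the high value and library 3 the low value, but the variation was within the dispersion of transcripts (edgeR unadjusted p = 0.203). Because this transcript has 759 bases and the coding transcripts are longer, its share in expected counts was 4.85%, 3.72% and 1.87%. By their annotated spans and lengths, the coding transcripts Srsf1-201 and Srsf1-205 appear to keep the same 378 bases as exon. The share is therefore that of the annotated class and not the extent to which this intron was kept.

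In Clk1 the share was 4.39%, 19.5% and 3.95% (9.26% ± 8.83). The high mean rests on library 2, and without it the mean was 4.17%. Clk1-204, which keeps the introns of 871 and 387 bases on the 2 sides of the skipped exon, stood at 0.740, 0.810 and 0.380 TPM, and the shorter Clk1-213 at 0, 1.48 and 0.290 TPM. Clk1-202 had log2 CPM of -0.31, 1.42 and -0.83 (edgeR unadjusted p = 0.0298, adjusted p = 0.597). All these transcripts were highest in library 2, the library in which the coding transcript Clk1-201 was lowest.

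The other 7 genes had mean shares between 0.996% and 6.06%. Srsf3 led them with 7.17%, 8.23% and 2.78%, then Tra2a with 4.07%, 7.72% and 2.20%, and Srsf7 with 4.24%, 6.10% and 1.98%. In each of these 3 genes library 2 was highest and library 3 lowest. Srsf5, at the highest gene level, had 2.63%, 4.76% and 2.77%, mostly in Srsf5-212, which keeps an intron of 1229 bases and stood at 1.68, 3.44 and 1.87 TPM (edgeR unadjusted p = 0.0469, adjusted p = 0.740).

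**Figure D3:**
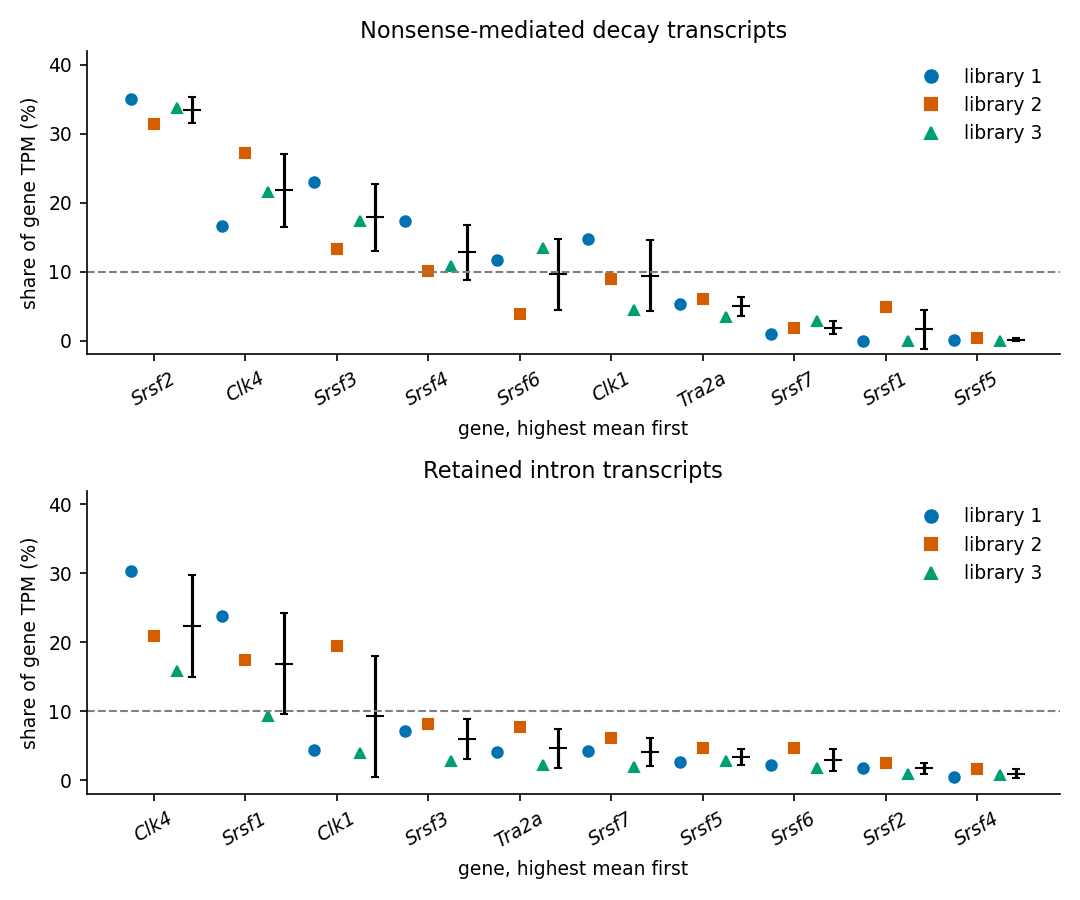
Share of each gene's TPM in nonsense-mediated decay transcripts (top) and retained intron transcripts (bottom), in percent. Points are the 3 libraries, the black mark with bars is their mean ± SD, and the dashed line is 10%. Srsf2 leads the decay shares at 33.4%, and Clk4 leads the intron shares at 22.4%.

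The plot of both shares sets the genes side by side. Clk4 was high in both classes, Srsf2, Srsf3 and Srsf4 in decay transcripts, and Srsf1 in transcripts of the retained intron class. The retained intron and decay shares together reached 10% in each library for 4 of the 10 genes, and for 17.9% of the 6338 detected genes with a transcript of either class.

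The library order of the intron shares was common to most of the 10 genes. The share was highest in library 2 for 8 of the 10 genes and for 52.1% of the 5235 detected genes with a share above 0, and lowest in library 3 for 8 of the 10 genes and for 36.4% of those genes. Genes at the same lowest share in several libraries are not in that 36.4%, and among the 4600 with no such tie it was 41.4%. In the second quantification library 3 was lowest for 8 of the 10 genes and for 45.2% of all genes with a share above 0. The median share in libraries 1, 2 and 3 was 4.15%, 6.91% and 2.48% over the 10 genes and 0.866%, 1.71% and 0.934% over all genes, so library 2 was highest in both. Among the 14 retained intron transcripts of these genes that could be tested, 12 had their highest log2 CPM in library 2 and 13 their lowest in library 3, beside 53.8% and 50% of all 2148 retained intron transcripts tested. The 10 genes share libraries and depth, so these counts are a description.

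Malat1 and Neat1 followed the same library order. The log2 CPM of Malat1 was 11.06, 12.35 and 10.07 in libraries 1, 2 and 3, and that of Neat1, around which paraspeckles form, was 7.71, 9.15 and 7.40. Of 6 tested RNAs of the nuclear list, 5 were called (edgeR adjusted p under 0.05), namely Malat1, Neat1, Xist, Firre and Kcnq1ot1, each highest in library 2, with Xist and Kcnq1ot1 lowest in library 1 and the other 3 lowest in library 3. Tsix was at 0 in every library. The 8 summed to 687, 803 and 241 TPM in libraries 1, 2 and 3. The part of nuclear RNA in the intron shares of these genes was not tested.

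**Figure D4:**
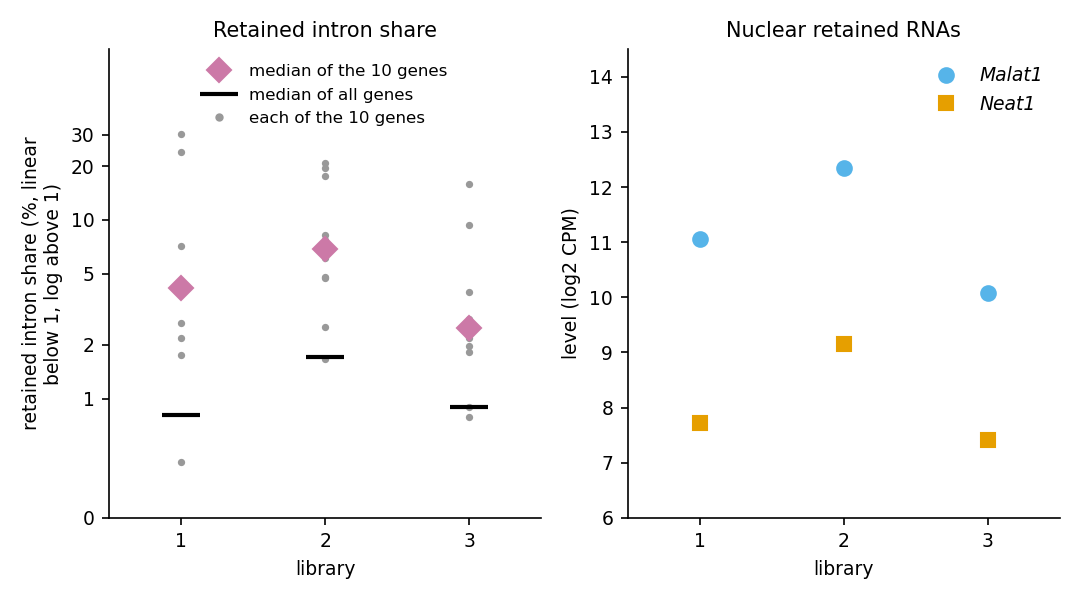
Left, retained intron share in percent for each of the 10 genes, their median and the median of all genes, by library, on an axis that is linear below 1 and logarithmic above. Right, Malat1 and Neat1 in log2 CPM by library. Library 2 is highest and library 3 lowest for the median of the 10 genes (6.91% and 2.48%) and for both nuclear RNAs.

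At the level of single transcripts, 44 of the 83 could be tested for variation between libraries, and 0 were called at adjusted p under 0.05 (edgeR), beside 331 of 23088 transcripts over all genes, or 1.43%. The count over all transcripts was 176, 182 and 141 without libraries 1, 2 and 3. At unadjusted p under 0.05 there were 4 of 44, beside 6.55% of all transcripts tested. Of these 4, 3 retain an intron, namely Srsf3-210, Clk1-202 and Srsf5-212, and 1 is coding, Clk4-203. Srsf3-210 had log2 CPM of -0.06, 1.55 and -0.98 (unadjusted p = 0.0205, adjusted p = 0.492). Clk4-203 had 114, 46.5 and 22.2 expected counts, while the main coding transcript Clk4-201 had 71.5, 117 and 221. In this quantification the coding reads of Clk4 were divided between these transcripts in opposite ways in libraries 1 and 3, and the whole gene did not follow either. In the second quantification Clk4-203 had 104, 52.6 and 24.3 estimated counts and Clk4-201 had 112, 140 and 277. There Clk4-201 was ahead in library 1 as well, so the division in that library depended on the quantification.

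Srsf2 held a transcript seen in a single library. Srsf2-205 has 433 bases and is of neither coding, intron nor decay class. It stood at 11.96 TPM on 105 expected counts in library 1 and was at 0 in libraries 2 and 3. It took 19.2% of the gene's TPM in library 1 (44.7% in the second quantification), and 56.8% of its bases overlap Mettl23 on the other strand. In the second quantification it was likewise above 0 in library 1 alone, at 13.3 TPM. The library 1 value of Srsf2 (62.4 TPM, against 35.8 and 41.8 TPM) includes it. On log2 CPM, where length does not enter, Srsf2 was at 6.20, 6.31 and 6.12 in the 3 libraries.

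The second quantification, made from the same reads with a table of another layout, gave the same highest and lowest genes. After both were rescaled to protein-coding genes, the second over the first was between 0.962 and 1.24 for all 10 genes, highest for Srsf6 and lowest for Srsf2. The pairs not apart were Clk1 and Srsf3, and Srsf3 and Srsf6, and Srsf1 now lay apart from Clk1 (mean log2 ratio 0.32 ± 0.27, positive in 3 of 3 libraries). Srsf6 and Srsf7 changed places. Srsf7 exceeded Srsf6 by 0.12 ± 0.05 on the log2 scale in the first, and Srsf6 exceeded Srsf7 by 0.20 ± 0.08 in the second. Both results met the rule for being apart, so that rule did not secure the order across quantifications.

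Transcript shares depended on the quantification more than gene levels did. The decay share of Srsf6 was 52.3%, 38.5% and 51.7% in the second, against 11.6%, 3.79% and 13.4% in the first. The ranges do not overlap, and the share of the transcript with the poison exon in Srsf6 is uncertain to that extent. For Srsf3 the second gave 35.7%, 21.2% and 24.7%, higher than the first in every library, and for Tra2a 13.4%, 15.2% and 8.59%, again higher in every library. Srsf2 went the other way, with 12.6%, 23.1% and 27.9%. Clk4 (22.8%, 35.6% and 24.9%) and Srsf4 (18.6%, 14.9% and 13.7%) were above the first quantification in each library. Decay shares reached 10% in each library for 5 genes in the second, the 4 of the first with Srsf6 added. Over the 2843 detected genes with such a transcript the same held for 19.6% in the second and 16.7% in the first.

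**Figure D5:**
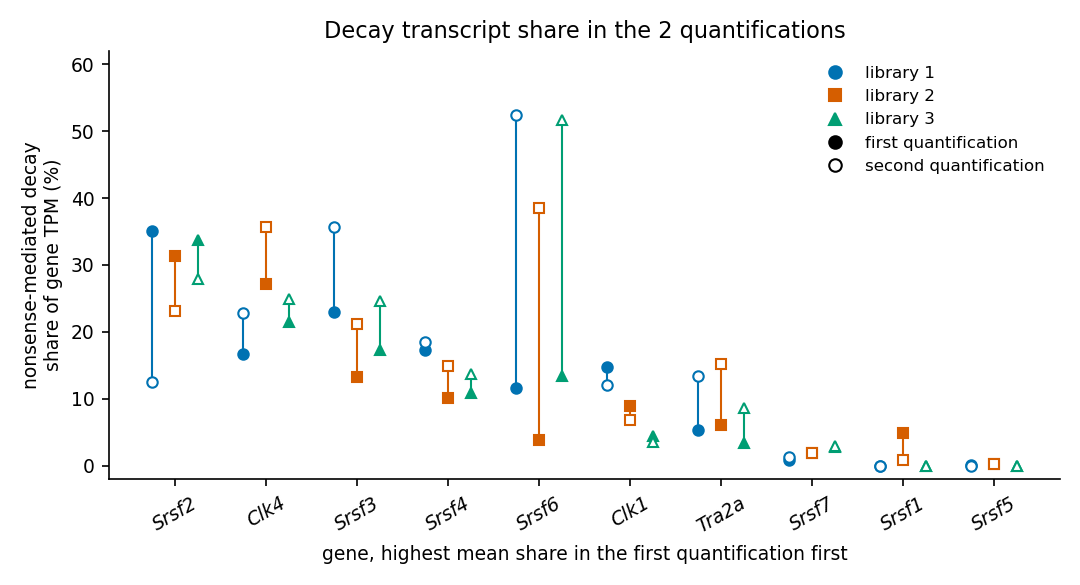
Decay share of each gene's TPM in percent, in the first (filled) and second (open) quantification, with a line joining the values of a library. The lines are longest for Srsf6, whose share runs from 3.79% to 13.4% in the first and from 38.5% to 52.3% in the second.

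The plot of the 2 quantifications shows the smallest gaps for Srsf5 and Srsf7. Retained intron shares moved less than decay shares, with means of 25.8% for Clk4, 15.9% for Srsf1 and 10.7% for Clk1 in the second.

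Some other genes had nearly the same division of RNA among the 4 classes (coding, retained intron, nonsense-mediated decay, other). Likeness was the Euclidean distance of mean shares over 3 libraries, in percentage points, among 1103 genes at 10 TPM or more with all of the 3 first classes annotated. The nearest to Srsf4 was Grk2 at 0.186 points, to Srsf7 Trappc10 at 0.194, to Srsf6 Cipc at 0.477 and to Tra2a Camta2 at 0.779. Srsf1 was nearest to Smox at 1.20 points, Srsf5 to Ciz1 at 2.74 and Clk1 to Tpcn2 at 2.93. Clk4 and Srsf2 had the most distant neighbours, Psma3 at 4.10 points and Smarca2 at 4.90.

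The other genes of the splicing and decay pathways give a scale for these values. Of 5 other SR proteins, 4 were detected, with a median of 15.8 TPM. Tra2b, the paralogue of Tra2a, was highest at 21.8 ± 3.93 TPM, then Srsf9 at 20.1 ± 3.01 TPM, and Srsf12 was at 0. Of 7 other kinases that act on SR proteins, 6 were detected, with a median of 9.21 TPM. Clk3 was highest at 17.3 ± 3.39 TPM, then Dyrk1a at 15.0 ± 3.60 TPM, and Srpk3 was lowest at 0.0933 TPM. Clk1 thus stood above every other kinase on the list, and Clk4 below all but Clk2 and Srpk3, in mean TPM.

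All 19 SR-related and speckle proteins were detected, with a median of 22.6 TPM, led by the speckle scaffolds Srrm2 (56.3 ± 9.25 TPM) and Son (49.0 ± 8.68 TPM), with Arglu1 lowest (4.25 ± 0.764 TPM). The 22 hnRNP proteins, RNA-binding proteins that often oppose SR proteins, had a median of 51.9 TPM, with Pcbp2 (189 ± 49.9 TPM) and Hnrnpa3 (139 ± 7.61 TPM) highest and Hnrnph3 lowest (2.97 ± 0.573 TPM). The 16 genes of nonsense-mediated decay and the exon junction complex, which marks spliced joints for that surveillance, were all detected with a median of 6.43 TPM. The helicase Eif4a3 (34.5 ± 7.60 TPM) and Rnps1 (22.6 ± 5.12 TPM) led and Magohb was lowest (2.25 ± 0.587 TPM). No gene of these 5 lists varied between libraries at adjusted p under 0.05 (edgeR).

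Transcript classes were also counted in those lists, which hold few genes each, and differences between lists were not tested. Decay shares of 10% or more in each library, seen in 16.7% of all detected genes with such a transcript, were found in 5 of 12 hnRNP genes with such a transcript, 3 of 15 SR-related genes, 2 of 5 other kinases, 1 of 3 other SR proteins and 0 of 4 genes of the decay pathway. For retained introns, where the share of all genes was 10.6%, the counts were 0 of 15 hnRNP genes, 1 of 19 SR-related genes, 1 of 6 other kinases, 1 of 2 other SR proteins and 0 of 9 genes of the decay pathway. The median decay share was 13.6% in the other kinases, 6.27% in genes of the decay pathway and 5.90% in the other SR proteins. It was 5.05% in hnRNP genes and 2.49% in SR-related genes, beside 9.49% in the 10 genes described here.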

How the data were processed

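The authors made a gene table and a transcript table from transcriptome alignments and a second transcript table from the reads, separately for each library, against GENCODE M21 (mm10), per the labels and deposited notes. Tools, versions and strand setting: not given in the sources used here. The deposited expected counts are estimated reads and the deposited TPM are relative abundances over all rows, corrected for length, and the deposited interval bounds of TPM have no stated level. Rows naming no gene held 0.365%, 0.162% and 0.0200% of the counts and were left out. Names and classes came from the annotation. Expected counts were rounded and tested with edgeR 4.0.16 in R 4.3.3 (filterByExpr, TMM, trended dispersion, chi-square goodness of fit, Benjamini-Hochberg over all genes or transcripts, threshold 0.05, prior count 0.5 for log2 CPM), which was tested on simulated data. DESeq2 1.42.0 was an alternative. Shares were transcript TPM over the sum of the gene. Python 3.11.15, pandas 2.3.3, numpy 2.4.6 and matplotlib 3.10.9 did the rest. The 10 genes and all lists were chosen with earlier results of these data known. Named besides the 10 are the 2 highest and the lowest gene of each list, called genes, the nearest gene by class shares and the highest transcript of each class. Transcripts outside this rule (Clk1-202, Clk1-213, Clk4-203, Clk4-212, Clk4-213, Clk4-214 and Srsf3-210) were named after their values were seen. Some items that the rule names are not reported here.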

Additional observations from a re-analysis of the deposited data

How the results depend on the processing

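The median level of the 10 genes, 19.7 TPM, was 7.32 TPM in the second quantification and 60.1 TPM after rescaling to protein-coding genes, since TPM is a share of all RNA listed, and 18.6 to 20.7 TPM with a library left out. The number of genes with 10% or more of TPM in retained intron and decay transcripts in each library, 4, was 6 in the second quantification, 3 in expected counts, 4 over 3 classes only and 4 to 6 with a library left out. Over all detected genes with a transcript of either class, it was 17.9% in the first quantification and 20.9% in the second, and was not computed in expected counts. The 203 genes varying between libraries numbered 89 to 132 with a library left out, which leaves fewer samples, and 189 to 298 under the other alternatives. The 331 varying transcripts numbered 805 with no low count filter, 141 to 182 with a library left out, and 340 and 427 with relative log expression scaling and a common dispersion; only 98 of the 805 were among the 331, and the cause was not tested. None of the 10 genes or their 44 tested transcripts was called under any of the settings run on it. No paired analysis was possible because all libraries belong to 1 group. The decay share moved by more than its SD over libraries for 5 of the 10 genes in the second quantification and for 4 in expected counts, and the retained intron share for 1 and 3; the cause was not tested. Low counts limit the shares, and 44 of 83 transcripts could be tested.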
